A study of Boehmeria nivea with 12 samples.

Results

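The 150 unigenes described here were chosen by their FPKM values, as those with the greatest rise from untreated to water-cultured stems in both ramie (Boehmeria nivea) cultivars, out of 66,881 unigenes in the deposited table. The study sequenced 4 groups of 3 libraries each from greenhouse-grown plants of the cultivars Zhongzhu No 2, abbreviated Z2, and Huazhu No 4, abbreviated H4, whose lateral branches were used as cuttings after the top of the main stem had been removed. Z2T and H4T were stem segments that had stood submerged in tap water for 10 days and carried root primordia. Z2CK and H4CK were stems taken directly from the plants and never kept in water. Each library was a pool of 5 plants. The submerged segments had also been detached from the plant for those 10 days, so that water, cutting and time cannot be told apart.

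Adventitious roots are roots that arise from stems or leaves and not from the embryonic root, and a cutting survives only if it forms them. In stems, cells near the vascular tissue are reprogrammed by auxin and wound signals, divide and organise into a root primordium, which then breaks through the outer tissues. A submerged stem may also experience low oxygen and a new water supply. These processes are known to change the transcription of many genes, among them those of hormone signalling, cell walls, stress and the cell cycle. Unigenes are clusters of transcripts that an assembler built from reads alone. The table lists each unigene by a Trinity identifier and pairs it with no gene name, so no role, pathway or sequence can be given for any of them, and the stem tissue could not be checked against marker genes. The prefix TRINITY_ that all identifiers share is left out here. In whole stems, a change in the number of cells of one type and a change in RNA per cell cannot be told apart.

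FPKM counts sequenced fragments relative to the length of the transcript and the size of the library. Changes were differences of log2(FPKM + 1), which come out too small where values are low. The libraries labelled H4CK1 and Z2T1 stood apart from the others of their groups and were left out of the choice, which used the other 10 libraries. A unigene qualified when its lowest water-cultured value exceeded its highest untreated value in each cultivar and the difference of the means was at least 1 in each. This was met by 1277 unigenes, 4.62% of the 27,628 unigenes that were tested, namely those that reached 1 FPKM in 3 or more libraries, and the mirrored rule for a fall was met by 861. The 1277 were ranked by the smaller of the 2 cultivars' differences, and the first 150 were taken. All 150 were among the 27,628 tested. The difference in H4 (H4T against H4CK2 and H4CK3) lay between 3.11 and 7.77 with a median of 3.98, against a median of 0.13 over all tested unigenes. In Z2 (Z2T2 and Z2T3 against Z2CK) it lay between 3.12 and 8.63 with a median of 4.84, against 0.00 over all tested unigenes. These differences are what selected the unigenes and stand here as a description without a test.

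The limit at rank 150 marked no break in the values. The last but 1, DN36563_c1_g2, had a smaller difference of 3.12, and the last, DN39289_c0_g2, one of 3.11. DN39289_c0_g2 had 335, 63.7 and 29.4 FPKM in the 3 H4CK libraries, 330.2, 358 and 470.5 in H4T, 26.8, 23.1 and 27.8 in Z2CK and 35.2, 305 and 336 in Z2T. It was thus measurable in every untreated library. The next 2 unigenes, DN39611_c0_g1 and DN41884_c0_g1, had 3.08 and 3.07.

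In the 10 libraries used for the choice, the 150 unigenes together made up between 3.79% and 5.88% of the summed FPKM of each water-cultured library and between 0.147% and 0.859% of each untreated one. Their median FPKM was 30.8 to 44.9 in the H4T libraries and 93.9 and 92.9 in Z2T2 and Z2T3. It was 0.71 and 0.49 in H4CK2 and H4CK3, and 0.61, 0.72 and 2.64 in Z2CK1, Z2CK2 and Z2CK3. The water-cultured libraries thus all lay above the untreated ones, as the rule required, and Z2CK3 was the highest of the untreated ones. The FPKM of all unigenes summed to between 914,642 and 1,061,225 per library, and between 30,586 and 34,107 unigenes were above 0 in 9 of the 12 libraries. The remaining 3, H4CK1, Z2T2 and Z2T3, had 42,401, 42,291 and 37,887. The part of these extra unigenes in the members' values was not tested. FPKM values carry no read counts, and the number of reads behind any value is unknown.

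**Figure D1:**
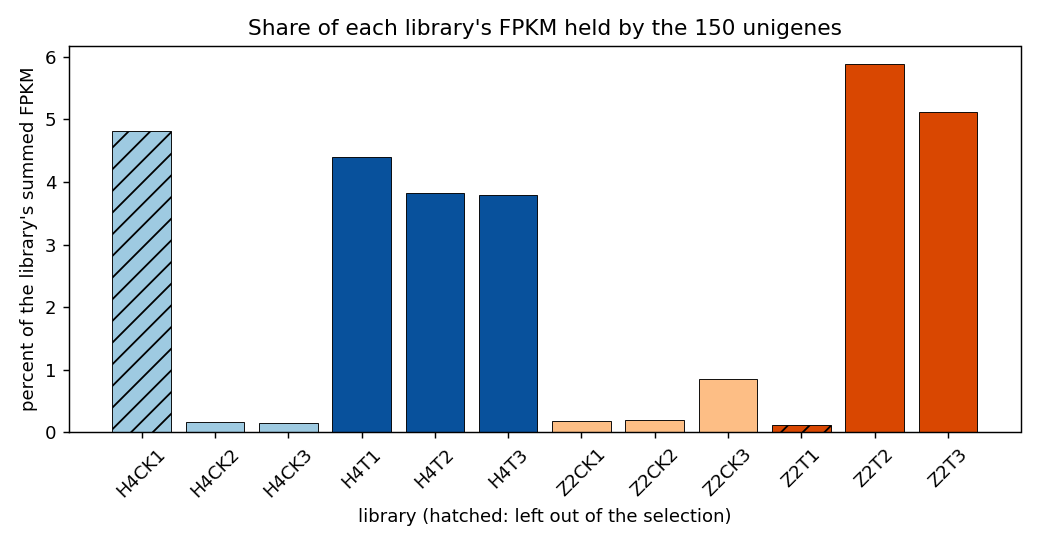
Share of each library's summed FPKM (percent, vertical axis) that came from the 150 unigenes, 1 bar per library, with the libraries left out of the choice marked. The libraries labelled H4CK1 (4.81%) and Z2T1 (0.125%) lie with the water-cultured and the untreated libraries, respectively.

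The rule had not used the libraries labelled H4CK1 and Z2T1, and both went against their labels. The library labelled H4CK1, an untreated one, had a median FPKM of 59.5 over the 150 unigenes, and they made up 4.81% of its summed FPKM. The library labelled Z2T1, a water-cultured one, had a median of 0.78 and a share of 0.125%. H4CK1 lay above both H4CK2 and H4CK3 in all 150 unigenes, against 48.6% of all tested unigenes, and Z2T1 lay below both Z2T2 and Z2T3 in all 150, against 49.8%. The median difference of H4CK1 from the mean of H4CK2 and H4CK3 was 4.77 on the log2 scale (0.12 over all tested unigenes), and that of Z2T1 from the mean of Z2T2 and Z2T3 was −5.20 (−0.18 over all). H4CK2 and H4CK3 were selected low and Z2T2 and Z2T3 high, so the rule favoured these 2 counts, and it favoured the label's side in a comparison of H4CK1 with H4T or of Z2T1 with Z2CK. The description "raised by water culture" therefore holds for the 10 libraries that chose these unigenes and not for the labels of all 12. The labels were kept as deposited throughout. Whether these 2 libraries were exchanged or mislabelled was not tested, and every 12-library value below depends on their labels.

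H4CK1 fell below all 3 H4T libraries, as its label would have it, in 16 unigenes or 10.7%, fewer than the 32.0% of all tested unigenes. It lay within the H4T range in 62 and above the highest H4T library in 72. Z2T1 exceeded all 3 Z2CK libraries in 24 unigenes or 16.0%, against 26.9% of all tested unigenes. It lay within their range in 87 and below the lowest in 39. No share over all tested unigenes was computed for the 62 and 72 or the 87 and 39, so nothing is read from them. Among the libraries compared with H4CK1 over the 150 unigenes, Z2T2 and Z2T3 were most like it in the order of values. The Spearman correlation was 0.90 and 0.85 with these, 0.73 to 0.80 with the H4T libraries and 0.68 and 0.67 with H4CK2 and H4CK3. The median difference of H4CK1 was 0.49 from the mean of H4T and −0.50 from the mean of Z2T2 and Z2T3. Among the libraries compared with Z2T1, H4CK2 and H4CK3 were most like it in order, with a correlation of 0.83 and 0.82. It was 0.68 to 0.75 with the Z2CK libraries and 0.59 and 0.54 with Z2T2 and Z2T3. The median difference of Z2T1 was 0.00 from the mean of H4CK2 and H4CK3 and −0.15 from the mean of Z2CK. By the median difference, H4CK1 lay about as far from H4T as from Z2T2 and Z2T3. By the order of values, among the libraries compared, H4CK1 was nearest to water-cultured stems of the other cultivar. Z2T1 was nearest to untreated stems of the other cultivar. H4CK1 was not correlated with Z2CK or Z2T1, nor was Z2T1 with H4T. These correlations are across unigenes, which are not independent and share each library, and no test was attached to them.

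**Figure D2:**
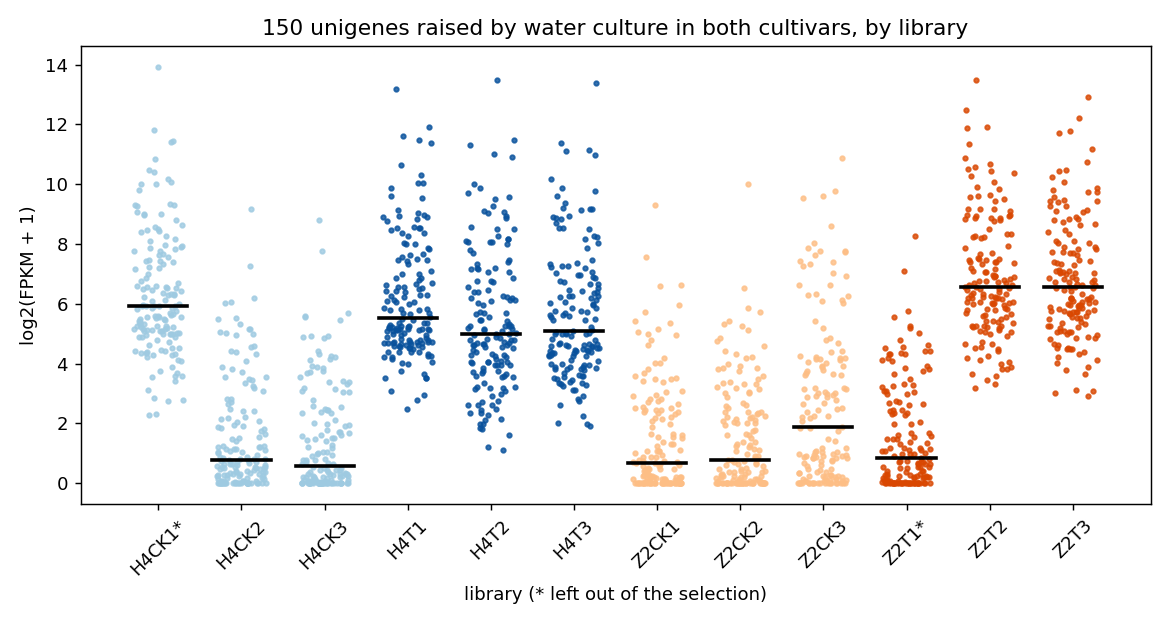
Distribution of log2(FPKM + 1) of the 150 unigenes in each of the 12 libraries, with the median of each library. The medians of H4CK1 (59.5 FPKM) and Z2T1 (0.78 FPKM) are at the level of the group opposite to their label.

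**Figure D3:**
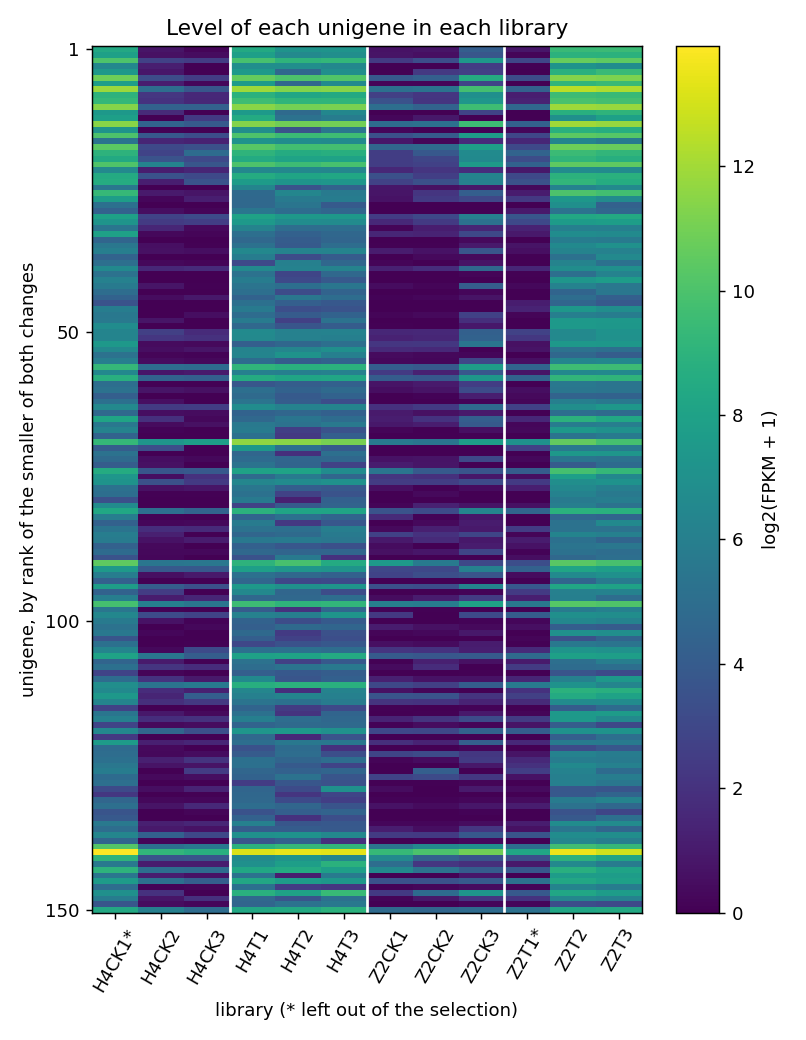
log2(FPKM + 1) of the 150 unigenes (rows) in the 12 libraries (columns). H4CK1 shows the colours of the water-cultured columns and Z2T1 those of the untreated columns in nearly every row, and Z2CK3 is raised in some rows.

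In the 10 libraries of the choice, the first 5 unigenes by rank moved from lower untreated values to higher ones after water culture, as the rule required. All values below are given in the order of replicates 1, 2 and 3. DN37991_c0_g5, the first, had 342, 0.73 and 0.14 in H4CK and 355, 141 and 147 in H4T. Its values were 0.62, 0.75 and 16.6 in Z2CK and 0.81, 689.8 and 709 in Z2T. Its difference without the libraries labelled H4CK1 and Z2T1 was 7.12 in H4 and 7.57 in Z2, the greatest smaller difference of the 150. The values of H4CK1 and H4T1 were close, and Z2CK3 stood above the other untreated libraries. DN34531_c2_g5 followed the same order, with 239, 0.53 and 0.37 in H4CK and 235, 93.7 and 119 in H4T. In Z2 it had 0.67, 0.48 and 12.4 in Z2CK and 0.15, 491 and 473 in Z2T. For this unigene too H4T1 lay near H4CK1 and above the other H4T libraries. Next came DN41966_c1_g3, which was already above 4 FPKM in every untreated library, with 1035, 5.55 and 4.47 in H4CK and 939, 538 and 594 in H4T. Its Z2 values were 4.16, 8.96 and 173 in Z2CK and 6.85, 1636 and 1403 in Z2T. Z2CK3 was far above Z2CK1 and Z2CK2.

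DN37361_c1_g2 was the most even of the first 5 across the H4T libraries, with 86.03, 1.29 and 0.03 in H4CK and 115, 116 and 85.95 in H4T. In Z2 it read 0, 0 and 4.63 in Z2CK and 0.06, 142 and 109 in Z2T. Its differences of 6.11 in H4 and 6.14 in Z2 were nearly equal. DN33154_c2_g1 was less even, with 174, 0.79 and 0 in H4CK and 177, 24.6 and 116 in H4T. Its Z2 values were 0, 4.01 and 5.24 in Z2CK and 0, 466 and 693 in Z2T, and the differences were 5.92 in H4 and 7.50 in Z2. Here H4T2 lay well below the other H4T libraries.

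A few unigenes carried most of the abundance. The most abundant of them held 21.9% of the summed mean FPKM of the 150 over the 5 water-cultured libraries of the choice, the first 5 held 47.2% and the first 20 held 73.4%. DN35989_c0_g1, at rank 140, led with 15629, 570.4 and 446 in H4CK and 9270.5, 11487 and 10635 in H4T. In Z2 it had 634, 1029 and 1895 in Z2CK and 307, 11568 and 7818 in Z2T. By FPKM it was among the first 3 unigenes of the whole table in each of the 5 water-cultured libraries and first in H4CK1, but 401st in Z2T1. It was also abundant in each untreated library of the choice, and its differences were 4.37 in H4 and 3.15 in Z2.

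The next 3 by abundance had assembly identifiers that begin with DN42471. DN42471_c6_g4 had 3626, 30.2 and 12.4 in H4CK and 3823, 2547 and 2691 in H4T. It read 34.9, 39.01 and 879.9 in Z2CK and 18.8, 5694 and 4739 in Z2T. DN42471_c4_g1 had 2711, 19.7 and 18.8 in H4CK, 2847, 2069.6 and 2264 in H4T, 32.2, 20.4 and 782 in Z2CK and 23.9, 3797 and 3502 in Z2T. The pattern of both was alike, with Z2CK3 more than 10-fold above Z2CK1 and Z2CK2. DN42471_c6_g2 had 2768, 22.3 and 14.2 in H4CK, 2635, 1912 and 2015 in H4T, 30.3, 34.2 and 742 in Z2CK and 18.96, 3888 and 3351 in Z2T. Its differences were 6.85 in H4 and 5.27 in Z2, and for all 3 the difference was greater in H4. The raised Z2CK3 enters the Z2 difference and lowers it, so nothing about the cultivars is read from this. DN41095_c3_g2 departed from the pattern of these 3, with 631, 151 and 217 in H4CK and 3100.2, 2848 and 2197 in H4T. Its Z2 values were 52.4, 41.9 and 215 in Z2CK and 136, 1524 and 902 in Z2T. In it H4CK1 stayed well below every H4T library and Z2T1 lay below Z2CK3.

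At the other end, 10 unigenes were listed at 0 in all 5 untreated libraries of the choice, and 44 were under 1 FPKM in all 5. Another 46 had at least 1 FPKM in all 5. The 10 had between 1.31 and 210.06 FPKM in the water-cultured libraries of the choice. DN41238_c2_g3, for example, had 69.1, 0 and 0 in H4CK, 55.95, 7.38 and 13.9 in H4T, 0, 0 and 0 in Z2CK and 0, 159 and 210.1 in Z2T. It was chosen after its values were seen. In the library labelled H4CK1 all 10 were above 0, between 3.97 and 69.1, while 7 of them were at 0 in Z2T1 and the highest there was 1.59. No fold is given for these 10, since an FPKM listed as 0 has no known depth.

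The size of the change differed between the cultivars for many of the 150, in either direction. The difference was greater in Z2 for 103 and greater in H4 for 47. It was at least 1 log2 unit greater in Z2 for 62, at least 1 unit greater in H4 for 17, and within 1 unit for 71. The median of the Z2 difference minus the H4 difference was 0.61, against −0.10 over all tested unigenes. With values rescaled to the same sum in every library, median-of-ratios scaling or quantile normalization, the number greater in Z2 was 97, 108 and 101. Both differences chose the unigenes, so these counts are a description without a test.

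**Figure D4:**
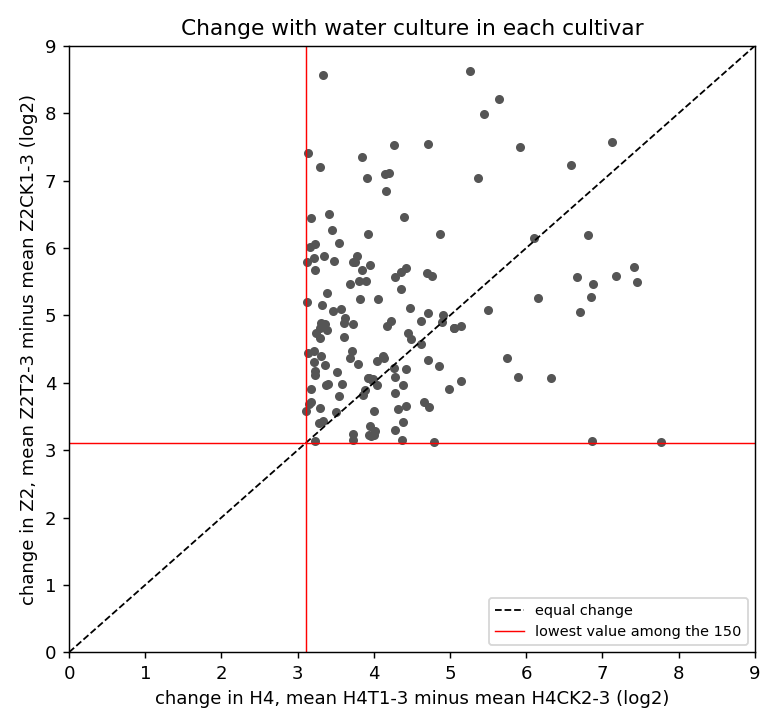
Change from untreated to water-cultured stems on log2(FPKM + 1) in H4 (horizontal axis) and in Z2 (vertical axis), 1 point per unigene among the 150, with the line of equal change. Both changes start near 3.1 because the rule cut there, and 103 points lie above the line and 47 below it.

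The largest excess in Z2 was seen in DN39340_c0_g1, with differences of 3.33 in H4 and 8.57 in Z2. It had 96.2, 2.38 and 1.33 in H4CK and 84.7, 2.51 and 73.5 in H4T. In Z2 it read 0.53, 0.13 and 0 in Z2CK and 2.92, 471 and 442 in Z2T. H4T2 and the library labelled Z2T1 stayed near the untreated level in it. DN35622_c2_g2 had 44.1, 1.16 and 0.63 in H4CK, 36.5, 1.18 and 53.3 in H4T, 0, 0 and 0.79 in Z2CK and 0, 205 and 208 in Z2T. DN41786_c2_g1 had 40.96, 0.84 and 0.28 in H4CK, 35.2, 3.28 and 21.3 in H4T, 0, 0.06 and 0.96 in Z2CK and 0.12, 176 and 199 in Z2T. In both, H4T2 was again well below the other H4T libraries. In DN35622_c2_g2 it barely exceeded H4CK2, at 1.18 against 1.16 FPKM. H4T2 was at least 2 log2 units below both other H4T libraries in 9 of the 150, against 0.362% of all tested unigenes. In those 9 the median FPKM was 51.0 in H4T1, 2.91 in H4T2 and 36.8 in H4T3, and 188 over Z2T2 and Z2T3. The Z2 difference exceeded the H4 one by at least 1 in all 9, with a median excess of 2.69. H4T2 enters the H4 difference, so that picking unigenes by a low H4T2 lowers that difference. Nothing about the cultivars is therefore read from the 9. H4T1, in turn, was at least 1 log2 unit above both other H4T libraries in 29, against 2.54% of all tested unigenes. The spread among the H4T libraries was correspondingly wide, with a median SD of 0.47 over the 150 against 0.20 over all tested unigenes (n = 3 libraries).

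Of the unigenes with the greater difference in H4, DN36643_c0_g4 led with 7.77 in H4 and 3.13 in Z2. Its values were 126, 2.89 and 0 in H4CK and 461, 256 and 665 in H4T. In Z2 it had 4.24, 28.03 and 153 in Z2CK and 14.1, 298 and 207 in Z2T. The untreated Z2 libraries spread widely, with Z2CK3 nearest to the water-cultured ones. DN33777_c2_g5 had 47.7, 1.06 and 1.08 in H4CK, 128, 224 and 485 in H4T, 30.9, 3.64 and 2.65 in Z2CK and 0.96, 92.1 and 54.2 in Z2T. For this one it was Z2CK1 that was high among untreated stems. DN38460_c2_g1 had 36.6, 0.13 and 0.10 in H4CK, 77.05, 142 and 62.6 in H4T, 0.33, 0.24 and 0.19 in Z2CK and 0, 24.4 and 16.4 in Z2T. Its untreated values were all under 1 FPKM apart from H4CK1, and the cultivars differed in the water-cultured level.

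The comparisons H4T vs. Z2T and H4CK vs. Z2CK asked whether the level of the 150 differed between the cultivars within a condition. The rule did not use the difference between cultivars, but it selected high water-cultured and low untreated values in the same 10 libraries. The counts from these libraries are therefore a description, and the shares of all unigenes beside them are not on an equal footing. Without H4CK1 and Z2T1, Z2T2 and Z2T3 both lay above all 3 H4T libraries in 90 of 150 (60%), against 24.8% of all tested unigenes. They lay below all 3 H4T libraries in 13 (8.67%), against 24.0%. The median difference of Z2T2 and Z2T3 from H4T was 0.93 log2 units, against 0.00 over all tested unigenes. With the other scalings the counts were 85 to 91 and 12 to 16. In untreated stems, where the rule held the values low, all 3 Z2CK libraries lay above H4CK2 and H4CK3 in 31 (20.7%), against 27.2%, and below them in 9 (6%), against 18.7%. The 44 unigenes under 1 FPKM in all 5 of these libraries left little room for a difference, and the 10 of them at 0 can be in neither count, so nothing is read from these shares. The median difference was 0.21, against 0.07 over all tested unigenes.

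The direction of H4T vs. Z2T depended on the library labelled Z2T1. With all 12 libraries the median difference of Z2T from H4T was −0.72, and without Z2T1 it was 0.93. For H4CK vs. Z2CK the median was −1.25 with all 12 libraries. In the limma fit of all 12 libraries, 0 of the 150 were DEGs (adjusted p under 0.001 and a difference of at least 2 log2 units) in H4T vs. Z2T, where 0.00724% of all tested unigenes were, and 0 in H4CK vs. Z2CK, where the share was again 0.00724%. At an unadjusted p under 0.05 there were 5 (3.33%) and 2 (1.33%) of the 150, against 13.2% and 14.9% of all tested unigenes. The median standard error of H4T vs. Z2T was 1.59 log2 units for the 150, against 0.35 over all tested unigenes. At an adjusted p under 0.05 and a difference of at least 1, limma called 0 of the 150 in H4T vs. Z2T (0.568% of all) and 1 in H4CK vs. Z2CK (0.489% of all).

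Without H4CK1 and Z2T1, limma at the same wider thresholds called 29 of the 150 higher in Z2T than in H4T (19.3%), against 5.92% of all unigenes tested, and 4 lower (2.67%), against 4.44%. In H4CK vs. Z2CK it called 6 higher in Z2CK (4.00%), against 7.15%, and 1 lower (0.667%), against 5.35%. At the stricter thresholds 1 of the 150 was a DEG in each comparison, where 1.73% and 1.93% of all unigenes were. The median standard error in this fit was 0.64 log2 units for the 150 and 0.26 over all tested unigenes. The values tested here also chose the unigenes, so nothing particular to them is read from these shares. For the same reason, the p-values given below for single unigenes without H4CK1 and Z2T1 are a description. They are no independent test of a difference between the cultivars.

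The unigene called at the stricter thresholds in H4T vs. Z2T without H4CK1 and Z2T1 was DN36025_c3_g2, higher in Z2T2 and Z2T3. It had 109, 0 and 0 in H4CK and 24.98, 11.7 and 15.9 in H4T. In Z2 it read 0.06, 0 and 0.88 in Z2CK and 0, 177 and 167 in Z2T. Z2T2 and Z2T3 were far above each H4T library, and the difference was 3.29 ± 0.35 (SE), with an adjusted p of 0.000528 in limma. Leaving out each of the 10 libraries in turn kept the difference between 3.05 and 3.56, but the adjusted p was under 0.001 only without H4T1 or Z2CK3 and 0.00104 to 0.00965 otherwise. With all 12 libraries the difference was 0.81 ± 2.13, with an adjusted p of 0.899. DN37394_c1_g1 and DN28838_c0_g1 came next, at 2.58 ± 0.35 and 2.45 ± 0.33, with adjusted p-values of 0.00203 and 0.00204 in limma without H4CK1 and Z2T1. Over the 12 libraries the differences were 0.64 ± 1.64 and 0.43 ± 1.71, with adjusted p-values of 0.896 and 0.940. DN37394_c1_g1 had 4.62, 12.2 and 9.95 in H4T and 0, 66.1 and 45.2 in Z2T. DN28838_c0_g1 had 20.04, 8.36 and 14.6 in H4T and 0.19, 87.7 and 70.2 in Z2T. In both unigenes Z2T2 and Z2T3 exceeded every H4T library, and Z2T1 lay below all of them.

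Lower in Z2T were DN36563_c1_g2, DN38460_c2_g1 and DN39161_c0_g1, at −1.93 ± 0.30, −2.09 ± 0.33 and −2.13 ± 0.40, with adjusted p-values of 0.00365, 0.00405 and 0.00982 in limma without H4CK1 and Z2T1. In the 12-library fit the first 2 were at −2.92 ± 0.98 and −3.55 ± 1.43, with adjusted p-values of 0.244 and 0.333. DN36563_c1_g2 had 22.6, 37.5 and 46.8 in H4T and 0.17, 8.97 and 7.56 in Z2T. The H4T libraries lay above Z2T2 and Z2T3 in each of the 3 unigenes.

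In untreated stems DN41061_c1_g4 was the unigene called at the stricter thresholds. Its values were 59.7, 0.47 and 0.91 in H4CK and 6.03, 9.18 and 11.7 in Z2CK, and 34.8, 25.2 and 19.4 in H4T and 0.33, 102 and 129 in Z2T. All 3 Z2CK libraries exceeded H4CK2 and H4CK3, and the difference without H4CK1 and Z2T1 was 2.53 ± 0.30 with an adjusted p of 0.000917 in limma. With all 12 libraries, including the 59.7 FPKM of H4CK1, it was 0.80 ± 1.75 with an adjusted p of 0.857. Leaving out any 1 of the 10 libraries raised the adjusted p to between 0.00102 and 0.013. DN37950_c0_g2 and DN37950_c0_g1, from the same assembly component, were higher in Z2CK by 2.28 ± 0.42 and 2.42 ± 0.45, with adjusted p-values of 0.00719 and 0.00773 without H4CK1 and Z2T1. Over the 12 libraries the differences were 0.80 ± 1.48 and 0.88 ± 1.52, with adjusted p-values of 0.826 and 0.811. DN37950_c0_g2 had 28.6, 0.30 and 0.44 in H4CK and 6.03, 7.79 and 3.77 in Z2CK. DN37950_c0_g1 had 30.8, 0.24 and 0.36 in H4CK and 6.62, 8.19 and 3.76 in Z2CK. Both lay near or above 4 FPKM in every Z2CK library and under 1 in H4CK2 and H4CK3.

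DN39161_c0_g1 kept its direction with and without H4CK1 and Z2T1 in both comparisons. Its values were 116, 39.5 and 50.2 in H4CK and 432, 488 and 453 in H4T. In Z2 it had 7.25, 5.16 and 16.9 in Z2CK and 52.97, 134 and 80.1 in Z2T. It was higher in H4 than in Z2 in either condition, and within each cultivar every water-cultured library exceeded every untreated one over all 12 labels. In the fit of all 12 libraries, limma gave −2.69 ± 0.48 in H4CK vs. Z2CK with an adjusted p of 0.0448, and −2.45 ± 0.48 in H4T vs. Z2T with an adjusted p of 0.0602. Without H4CK1 and Z2T1 the values were −2.23 ± 0.40 and −2.13 ± 0.40, with adjusted p-values of 0.00666 and 0.00982. Leaving out each of the 10 libraries in turn gave adjusted p-values of 0.00071 to 0.0424 and 0.00109 to 0.0937.

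That unigene was 1 of 4 in which both H4CK1 and Z2T1 lay on the side of their labels. Taken singly, these sides were met by 32.0% and 26.9% of all tested unigenes. The share that met both was not computed, so nothing is read from the number 4. DN36688_c1_g5 had 19.4, 0.44 and 0.16 in H4CK, 43.6, 28.9 and 23.1 in H4T, 0, 0 and 0 in Z2CK and 0.97, 36.5 and 23.5 in Z2T. DN36754_c0_g3 had 10.99, 0 and 0 in H4CK, 34.8, 17.9 and 13.5 in H4T, 0, 0 and 0 in Z2CK and 1.16, 22.3 and 13.7 in Z2T. The margins were narrow in Z2T1, which stayed near 1 FPKM in both. DN33587_c0_g1 had 6.12, 0.30 and 0.37 in H4CK, 21.7, 26.7 and 26.6 in H4T, 0.11, 0.39 and 0.16 in Z2CK and 0.66, 16.5 and 7.13 in Z2T. In all 4, H4CK1 was above H4CK2 and H4CK3 although below H4T.

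The comparisons H4CK vs. H4T and Z2CK vs. Z2T chose the unigenes in part, and their counts are a description from which nothing is read. In limma with all 12 libraries 0 of the 150 were DEGs in H4CK vs. H4T (0.00362% of all tested) and 0 in Z2CK vs. Z2T (0.0109% of all), with 26 (17.3%) and 57 (38.0%) of the 150 at an unadjusted p under 0.05, against 13.5% and 18.4% of all tested unigenes. At the wider thresholds 1 was called in each (0.471% and 1.34% of all), and in each it was DN39161_c0_g1. Without H4CK1 and Z2T1 the stricter thresholds called 37 (0.937% of all) and 60 (1.28% of all), and the wider ones called 98.0% of them higher in H4T (7.20% of all) and 99.3% higher in Z2T (8.05% of all).

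The library Z2CK3, which the rule had used as untreated, was raised in part of the 150. It was at least 1 log2 unit above the mean of Z2CK1 and Z2CK2 in 64 (42.7%), against 6.97% of all tested unigenes. Its median difference from that mean was 0.65 over the 150 and 0.03 over all tested unigenes. Its values fell at 10% or more of the mean of Z2T2 and Z2T3 in 45, between 3% and 10% in 26 and under 3% in 79. These limits were set after the values were seen. In the 45, Z2CK3 had a median of 17.8% of the water-cultured level (quartiles 15.7% and 20.7%), whereas Z2CK1 and Z2CK2 had 1.72%. The 45 were abundant, with a median of 296 FPKM over the water-cultured libraries, against 41.8 in the 79, and they included 17 of the 20 most abundant of the 150. In the 79 Z2CK3 had a median of 0.49% of the water-cultured level. The difference was greater in Z2 than in H4 for 19 of the 45 and for 68 of the 79. Z2CK3 enters the Z2 difference, so that a raised value in it lowers that difference.

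**Figure D5:**
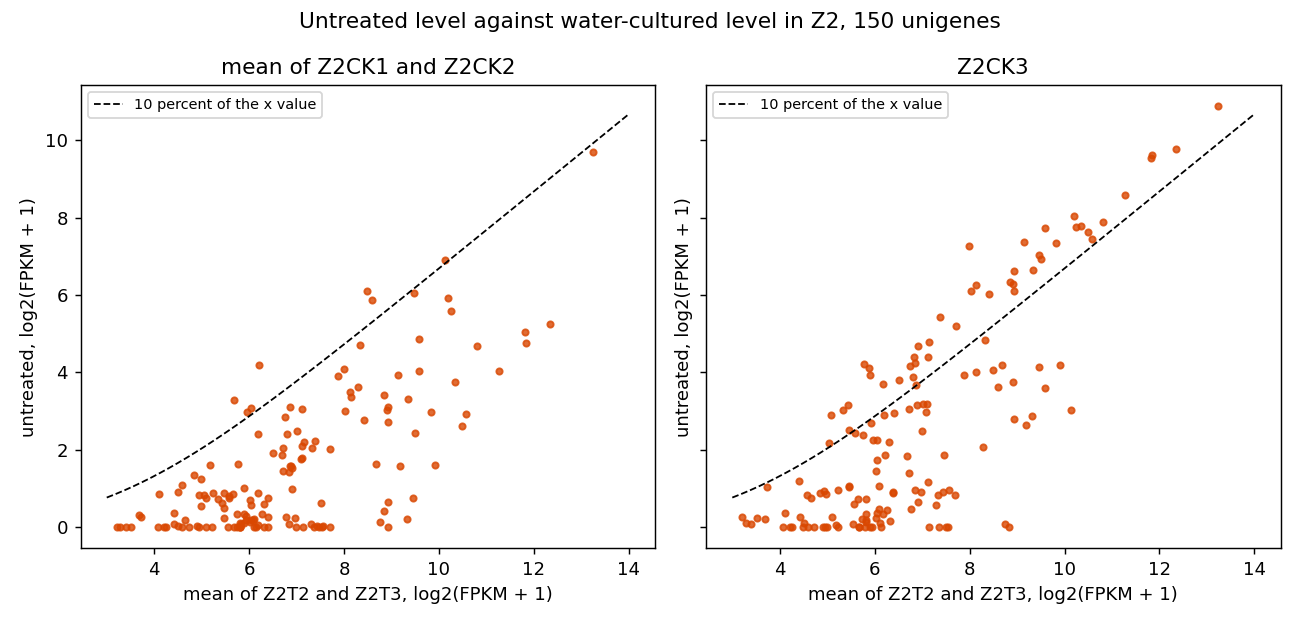
Untreated level (vertical axis) against the mean of Z2T2 and Z2T3 (horizontal axis), both on log2(FPKM + 1), 1 point per unigene among the 150, for the mean of Z2CK1 and Z2CK2 on the left and for Z2CK3 on the right. The dashed line marks 10% of the water-cultured level, and in Z2CK3 45 unigenes lie on or above it, many of them abundant, while 79 lie under 3%.

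The 150 unigenes came from 139 Trinity components, which are parts of the assembly graph that can hold related transcripts. Of these 11 held 2 of the unigenes each, and none held more. Within those 11 pairs Pearson's r over the 12 libraries was 0.914 to 0.999 with a median of 0.977, given as a description because the libraries and the selection are shared and reads of similar transcripts may have been divided between the 2. The highest r was that of DN42471_c6_g2 with DN42471_c6_g4. The 139 components held 117 further tested unigenes, of which 31 (26.5%) met the rule at a difference of at least 1, against 4.62% of all tested unigenes. The median differences of the 117 were 0.43 in H4 and 0.57 in Z2, against 0.13 and 0.00 over all tested unigenes. In 65 of the 117 both differences were above 0, in 21 both were at or under 0, and in 62 neither reached 1. No share over all tested unigenes was computed for these counts. A rise of 1 unigene thus did not extend to every unigene of its component.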

How the data were processed

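RNA was sequenced from stems of 2 ramie cultivars with and without 10 days of water culture, in 12 libraries of 3 biological replicates per group. The table that the authors deposited holds FPKM values of 66,881 Trinity unigenes. The study describes mapping of reads to a ramie genome, but the sources used here do not give the assembly or counting of the Trinity unigenes. Each column was matched to its library through the sample titles. FPKM values were used as deposited, on log2(FPKM + 1), without rescaling. The 150 unigenes were chosen from 10 libraries by the rule given above. This choice, the thresholds and the list were made with earlier results of these data known.

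The 27,628 unigenes that reached 1 FPKM in 3 or more of the 12 libraries were tested in R 4.3.3 by limma 3.58.1, letting the variance follow the mean, with all 4 groups in 1 fit. The DEG thresholds were those of the study's methods, a p of 0.001 after Benjamini-Hochberg adjustment and a log2 fold change of 2 in either direction. All adjusted p-values are limma's, and a difference gives the group after "vs." relative to the one before it. The same fit without H4CK1 and Z2T1 tested 26,261 unigenes. The fit was tested on simulated data with a common spread for all unigenes and no library apart from its group, unlike the data here. Values after ± are standard errors. Named were the 5 unigenes ranked first, the 5 most abundant, the 3 with the greatest excess of change in each cultivar, up to 5 with both outside libraries on their label's side, up to 3 per direction with the smallest adjusted p in H4T vs. Z2T and H4CK vs. Z2CK, those at the limit of the choice, and pairs from 1 Trinity component. Alternatives were other scalings, pseudocounts, filters, thresholds, library sets and the replicate number as a block. Python 3.11.15, pandas 2.3.3, numpy 2.4.6 and matplotlib 3.10.9 served for tables and plots.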

Additional observations from a re-analysis of the deposited data

How the results depend on the processing

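The choice of unigenes depended on the libraries. With all 12 libraries in the rule, 83 unigenes met it and 4 of the 150 were kept, and with a pseudocount of 0.1 the numbers were 2035 and 90. Leaving out each of the 10 libraries in turn gave 1240 to 1476 unigenes and kept 129 to 147 of the 150. Rescaling to equal sums, median-of-ratios scaling and quantile normalization gave 1186, 1196 and 933 unigenes and kept 145, 146 and 140. The share of the 150 called by limma is given as a percentage, in the order H4T vs. Z2T, H4CK vs. Z2CK, H4CK vs. H4T and Z2CK vs. Z2T. With all 12 libraries it was 0 in each at the stricter thresholds, also without any 1 library, and 0, 0.667, 0.667 and 0.667% at an adjusted p of 0.05 and a log2 difference of 1. Of all tested unigenes, 0.00724, 0.00724, 0.00362 and 0.0109% passed the stricter thresholds and 0.568, 0.489, 0.471 and 1.34% the wider ones. With the 10 libraries the share of the 150 was 0.667, 0.667, 24.7 and 40.0%, and 22.0, 4.67, 98.0 and 99.3% at the wider thresholds. Of all 26,261 unigenes tested there, the stricter thresholds called 1.73, 1.93, 0.937 and 1.28%. The wider ones called 2720, 3282, 3300 and 3532 of the 26,261. Without Z2CK3 as well, an alternative chosen after the data were seen, the share of the 150 was 1.33, 0.667, 52.0 and 64.0%, and 28.0, 8.67, 98.0 and 98.7%. Of all 25,669 unigenes tested there, 429, 349, 382 and 440 were called, and 2786, 3209, 3413 and 3854 at the wider thresholds. The same libraries chose the 150, so nothing particular to them is read from these shares. Leaving out each of the 10 libraries for the named DEGs was also added after the data were seen.

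With the replicate number as a block (replicate block), limma called 0 of the 150 and 0 of all 27,628 tested unigenes in each of the 4 comparisons. At an unadjusted p under 0.05 in limma there were 2, 1, 15 and 26 of the 150. These were 1.33, 0.667, 10.0 and 17.3% of them, against 10.0, 11.2, 10.2 and 14.3% of all tested unigenes. The correlation of same-numbered deviations lay between −0.183 and 0.131. A library correlated best with its own number in 0, 1, 0 and 2 of 3 cases. H4CK1 and Z2T1, which stood apart from their groups, enter these deviations, so whether the numbers pair the samples cannot be decided from them. FPKM values carry no depth, so low values have no known counting error.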
